A study of Rattus norvegicus with 12 samples.

Results

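The bacteria described here are the Lachnospiraceae of rat faeces that carried no genus name. They were counted as amplicon sequence variants (ASVs), exact sequences inferred from 16S rRNA gene reads; this ribosomal gene differs between bacterial taxa. An ASV was a member if its lineage named the family Lachnospiraceae and gave no genus or the word uncultured in its place. Of the 7240 ASVs in the table, 1423 met this rule, and each had at least 1 read in some library. The genus field was missing for 1393 of them and read uncultured for 30, which held at most 0.0474% of the reads of a library. The other 578 Lachnospiraceae ASVs had a genus name. The table gives neither a sequence nor an identifier for an ASV, so each member is called by its rank in mean share over the 12 libraries, from ASV 1 downwards.

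Lachnospiraceae are strictly anaerobic, mostly spore-forming Clostridia and are among the common families of the mammalian gut. Many ferment plant polysaccharides and make short-chain fatty acids, butyrate among them, which the colon epithelium uses as fuel. A lineage that ends at the family says nothing of which of these pathways a bacterium holds, so no role is given here to any single member.

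Faeces were profiled in 4 groups of 3 libraries. SAH+Tet+ABX stands for rats of the subarachnoid haemorrhage model given tetrandrine and ABX, a common short form for antibiotics. SAH+Tet had the model and tetrandrine, an alkaloid from plants and a blocker of calcium channels, SAH had the model alone, and Sham had the sham operation. Every group but Sham therefore carried the haemorrhage, and both Tet groups carried tetrandrine. The sources used here give no strain, age, drug name for ABX, dose or time. The design text asks whether the gut bacteria differed among the groups. The labels do not say that each library came from a separate animal, so p-values measure only the spread between these libraries. All shares are relative: a lower share does not tell fewer bacteria from more of the others, and 16S copy number was not corrected.

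Libraries held 211450 to 531426 reads. The lower depth class, under 300000 reads, held all 3 SAH+Tet+ABX libraries, SAH+Tet 3 and SAH 1. With 0 reads a member could still have held 0.000565% to 0.00142% of a library, the share that 3 reads make up (counting error only). A set of 4 libraries stood apart by the summed share of a list of 16 Gram-positive families, called aerobic here. The list includes Corynebacteriaceae, Staphylococcaceae, Aerococcaceae and Enterococcaceae. The share was 13.7% (SAH+Tet 1), 20.8% (SAH+Tet 2), 13.7% (SAH 2) and 12.6% (SAH 3), against 0.0432% to 0.162% in the other 8. These 4 were the SAH and SAH+Tet libraries of the higher depth class, so within these groups depth and this share cannot be told apart. The part of this set in the results below was not tested beyond recomputing the summed share outside these families. SAH 1 and SAH 2 ran together: 29 members had at least 50 reads in SAH 1 and 0 in SAH 3. All 29 had reads in SAH 2, at a median of 0.992 times the read count in SAH 1 (interquartile range 0.920 to 1.11). Over all member counts the pair still differed by more than sampling noise, with a chi-square of 22.6 per degree of freedom against 35.3 to 604 for other pairs of a group. The near-equal counts stood beside totals of 248285 reads in SAH 1 and 531426 in SAH 2. They were kept as 2 libraries, and tests over the 4 groups were repeated with the pair averaged. Whether the pair is independent was not tested, and every SAH value with n = 3 rests on it. Without SAH 1 or SAH 2, the differences between SAH and Sham and between SAH+Tet and SAH in summed share, number and ratio kept their signs, and those that moved by over 1.5 times are given below.

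The members as a whole did not differ detectably in share among the 4 groups when replicate numbers were not used. They held 23.8%, 7.64% and 19.2% of reads in the SAH+Tet+ABX libraries and 11.9%, 6.79% and 17.8% in the SAH+Tet libraries. They held 10.1%, 6.23% and 9.64% in the SAH libraries and 16.0%, 10.5% and 20.4% in the Sham libraries. Every group spread widely, and replicate 2 was the lowest library of each group. Each of the 3 SAH values lay below each of the 3 Sham values. The means were 16.9% ± 8.32 in SAH+Tet+ABX, 12.2% ± 5.53 in SAH+Tet, 8.64% ± 2.10 in SAH and 15.6% ± 4.96 in Sham (SD, n = 3 each). A two-sided exact permutation of the F statistic on the log2 share over all 15400 assignments of the libraries gave p = 0.369, or 0.443 after Benjamini-Hochberg adjustment over the 6 tests of this kind. With SAH 1 and SAH 2 averaged the exact p was 0.507, and as a share of reads outside the aerobic Gram-positive families it was 0.438. The exact permutation p fell below 0.05 with replicate number as a block (last section). SAH minus Sham was -6.97 percentage points, and the groups did not overlap (exact permutation p = 0.1, the smallest that 3 against 3 allows). Outside the aerobic Gram-positive families they did overlap, at 10.1%, 7.22% and 11.0% in SAH and 16.0%, 10.5% and 20.4% in Sham. SAH+Tet exceeded SAH by 3.54 points with overlapping groups (exact permutation p = 0.4), but by 0.713 without SAH+Tet 3. With SAH+Tet 2 left out it was 6.24 points, and with SAH 2 left out 2.34. Sham 3 also weighed on the first difference, which was -4.59 points without it. SAH+Tet+ABX exceeded SAH+Tet by 4.69 points, also with overlap (exact permutation p = 0.4). It was 1.24 without SAH+Tet+ABX 1, 9.31 without SAH+Tet+ABX 2, 1.99 without SAH+Tet 2 and 7.52 without SAH+Tet 3. Among libraries of the lower depth class, which left SAH+Tet 3 alone on its side, it was -0.972 points.

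**Figure D1:**
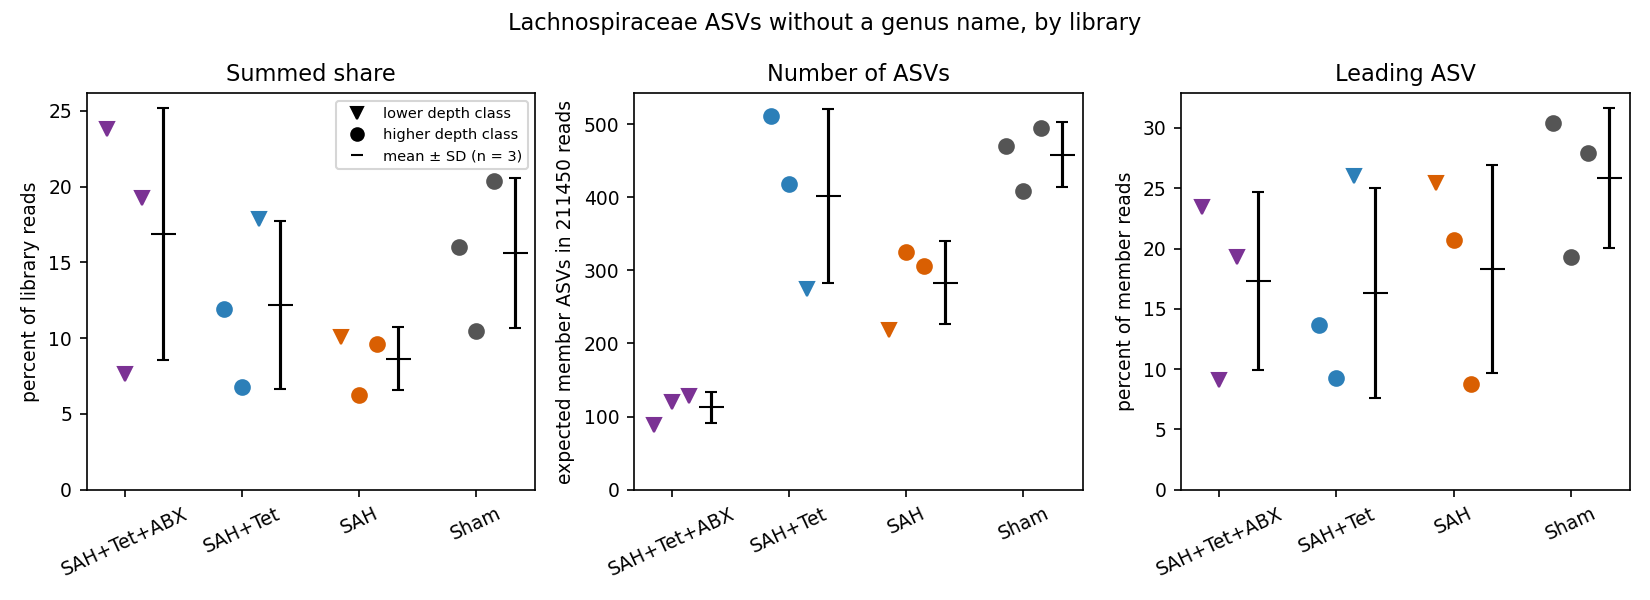
Each point is 1 library: percent of library reads in unnamed Lachnospiraceae ASVs (left), expected number of these ASVs in a draw of 211450 reads (middle) and percent of member reads in the leading ASV (right). Triangles mark the lower depth class and bars the mean ± SD of the 3 libraries of a group. Summed shares and leading shares overlap among most groups, while the SAH+Tet+ABX libraries, at 89.0 to 128.6 ASVs, lie below all 9 others in number.

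Within their family the members held the larger part of the reads in 9 of 12 libraries. Their percent of all Lachnospiraceae reads was 72.7%, 58.0% and 58.1% in SAH+Tet+ABX and 54.6%, 37.3% and 68.7% in SAH+Tet. It was 34.0%, 38.7% and 54.9% in SAH and 55.1%, 52.6% and 62.4% in Sham. The 3 libraries in which the named genera held more were SAH+Tet 2, SAH 1 and SAH 2. On the log2 ratio of member reads to reads of named Lachnospiraceae, the 4 groups did not differ beyond the spread of the libraries (exact permutation p = 0.228, adjusted 0.343). SAH minus Sham was -0.84, SAH+Tet minus SAH was 0.66 and SAH+Tet+ABX minus SAH+Tet was 0.57 on this log2 scale, with exact permutation p = 0.2, 0.5 and 0.4. Leaving out 1 library moved these differences between -1.20 and -0.58, 0.20 and 1.14, and 0.09 and 1.03. The second was 0.40 without SAH 1 and 1.02 without SAH 3, and with SAH+Tet 3 or SAH+Tet 2 left out it was 0.20 or 1.14. The last was 0.25 without SAH+Tet+ABX 1, 0.09 without SAH+Tet 2 and 1.03 without SAH+Tet 3.

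The number of members differed among the groups, and the SAH+Tet+ABX libraries held the fewest. Brought to an equal depth of 211450 reads, the expected number of member ASVs was 89.0, 119.9 and 128.6 in SAH+Tet+ABX and 511, 419 and 275 in SAH+Tet. It was 218, 325 and 307 in SAH and 471, 409 and 495 in Sham. The SAH+Tet+ABX values lay below those of all other libraries, and the SAH values below those of Sham. Even at equal depth, every library of the lower depth class (89.0 to 275) lay below every library of the higher class (307 to 511). All 3 SAH+Tet+ABX libraries were of the lower class, so group and depth class cannot be fully told apart for this number. The exact permutation test over the 4 groups gave p = 0.00240 (adjusted 0.00721). Among SAH+Tet, SAH and Sham alone the exact permutation p was 0.121, so the call rests on the SAH+Tet+ABX libraries. SAH+Tet+ABX averaged 112 ± 20.8 members against 401 ± 119 in SAH+Tet, a difference of -289 (SD, n = 3 each, exact permutation p = 0.1, no overlap). Against the single SAH+Tet library of the lower depth class it was -162. SAH+Tet averaged 401 ± 119 against 283 ± 56.9 in SAH, a difference of 118 with overlap (exact permutation p = 0.3, n = 3 each). It was 63.4 without SAH+Tet 1 and 181.6 without SAH+Tet 3. SAH averaged 283 ± 56.9 against 458 ± 44.7 in Sham, a difference of -175.0 (exact permutation p = 0.1, no overlap, n = 3 each).

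The members were a similar part of all ASVs in every library. They made up 15.1% to 21.2% of the ASVs expected at 211450 reads, with group means of 19.7% ± 1.35 in SAH+Tet+ABX, 19.6% ± 1.81 in SAH+Tet, 16.5% ± 1.95 in SAH and 20.2% ± 1.55 in Sham (SD, n = 3 each). The SAH+Tet+ABX libraries were also lowest in all other ASVs, of which 461 ± 98.1 were expected there against 1665 ± 531 in SAH+Tet (SD, n = 3 each). Other ASVs split by depth class as well, with 351 to 1052 in the lower class and 1639 to 1972 in the higher. A test of the log2 ratio of member number to other ASV number was added after the values were seen. It gave an exact permutation p of 0.0850 (adjusted 0.170), and 0.0461 without SAH 1. In this ratio replicate 2 was the lowest library of every group. With replicate number as a block the exact permutation p was below 0.05 (last section).

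Reads of the members were concentrated in few ASVs, and which ASVs these were differed from library to library. ASV 1 held 8.87% of the mean member share, the 10 most abundant 35.5%, and the 100 most abundant 74.6%. The leading ASV of a library held 23.4%, 9.08% and 19.3% of member reads in SAH+Tet+ABX and 13.7%, 9.22% and 26.0% in SAH+Tet. It held 25.5%, 20.7% and 8.75% in SAH and 30.4%, 19.3% and 27.9% in Sham. Dominance thus ranged as widely within groups as between them, and the exact permutation test over the 4 groups gave p = 0.557 (adjusted 0.557). The 10 leading ASVs together held 56.0% to 83.6% of member reads in SAH+Tet+ABX, 41.2% to 64.4% in SAH+Tet, 42.1% to 50.9% in SAH and 57.1% to 60.0% in Sham (exact permutation p = 0.0807).

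The fewest ASVs that together held 50% of member reads numbered 3, 9 and 6 in SAH+Tet+ABX, 17, 19 and 4 in SAH+Tet, 10, 16 and 12 in SAH, and 6, 6 and 5 in Sham. In SAH+Tet+ABX 1 these were ASV 2, ASV 6 and ASV 5. The inverse Simpson index, the number of equally abundant ASVs that would give the same chance of drawing 1 ASV in both of a pair of reads, ran from 7.02 in SAH+Tet+ABX 1 to 41.3 in SAH+Tet 2. It was 7.02, 25.2 and 14.8 in SAH+Tet+ABX, 29.6, 41.3 and 8.94 in SAH+Tet, 13.1, 19.3 and 34.6 in SAH, and 9.41, 14.8 and 10.2 in Sham (exact permutation p = 0.387). SAH and Sham did not overlap in the number of ASVs that held 50% of reads, and the SAH+Tet libraries spanned both.

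**Figure D2:**
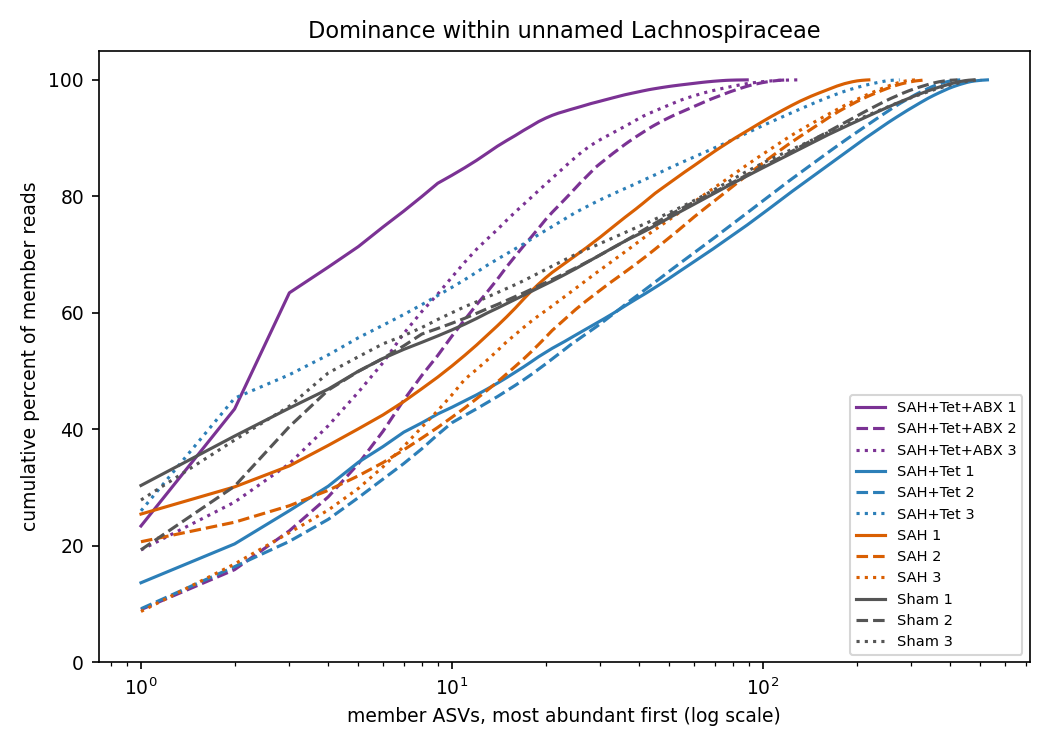
Cumulative percent of member reads (vertical) against the number of member ASVs taken from the most abundant on (horizontal, log scale), with 1 line for each of the 12 libraries. SAH+Tet+ABX 1 rises most steeply, with 83.6% of member reads in 10 ASVs, and SAH+Tet 2 is lowest there at 41.2%.

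The leading member differed between libraries, and 8 members led in at least 1. ASV 1 led in the 3 Sham libraries and in SAH 3, ASV 4 in SAH 1 and SAH 2, and ASVs 9, 3 and 7 in SAH+Tet 1, 2 and 3. ASVs 2, 11 and 8 led in SAH+Tet+ABX 1, 2 and 3. The 12 lists of the 10 most abundant members held 70 distinct ASVs, of which 41 stood in the list of 1 library. ASV 1 stood in 6 lists, more than any other member. Of the 10 most abundant members of SAH+Tet+ABX 1, none was among the 10 of another library, whereas SAH+Tet+ABX 2 and 3 shared 8 of theirs.

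ASV 1 was the most abundant member and was most abundant in Sham. It had 0% in all 3 SAH+Tet+ABX libraries, and 0.132%, 0.491% and 0% of reads in SAH+Tet. It had 0.00242%, 0.165% and 0.843% in SAH and 4.86%, 2.02% and 5.68% in Sham. Its 3 Sham values lay above those of the other 9 libraries. ASV 9 was highest in 1 SAH+Tet library. It had 0% in SAH+Tet+ABX, 1.63%, 0.0248% and 0% in SAH+Tet, 0%, 0.0549% and 0.357% in SAH, and 0.176%, 0.656% and 1.16% in Sham. ASV 10 had 0% in SAH+Tet+ABX and in SAH, 0.0413%, 0.00600% and 0% in SAH+Tet, and 1.36%, 0.0158% and 2.09% in Sham. Both varied strongly within Sham, by library.

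ASV 3 was most abundant in SAH+Tet. It had 0% in SAH+Tet+ABX, 0.794%, 0.626% and 3.45% in SAH+Tet, 0%, 0.00188% and 0.00936% in SAH, and 0.0637%, 0.1003% and 0.138% in Sham. The SAH+Tet values lay above those of all other libraries, and the Sham values above those of SAH. ASV 7 owed its rank to 1 library, with 4.64% in SAH+Tet 3, 0.0887% in Sham 1, 0.00866% in Sham 3 and 0% in the other 9. ASV 4 was most abundant in SAH: it had 0%, 0.434% and 0.575% in SAH+Tet+ABX, 0%, 0.00213% and 0% in SAH+Tet, 2.56%, 1.29% and 0.162% in SAH, and 0% in Sham. It was thus found with SAH and again in 2 of the SAH+Tet+ABX libraries.

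ASVs 2, 5 and 6 were abundant in SAH+Tet+ABX 1 alone. ASV 2 had 5.57%, 0.0658% and 0% in SAH+Tet+ABX, and ASV 6 had 4.78%, 0.0448% and 0%. Both had a trace in SAH+Tet 3 (0.00572% and 0.00440%) and 0% in the other 8 libraries. ASV 5 had 4.74%, 0.0431% and 0.0886% in SAH+Tet+ABX and 0% in the other 9. In SAH+Tet+ABX 2 the reads of ASV 2 were 1.47 times those of ASV 6, against 1.17 times in SAH+Tet+ABX 1. ASV 8 had 0.00899%, 0.445% and 3.71% in SAH+Tet+ABX, 0.00349%, 0% and 0% in SAH+Tet, 0.240%, 0.141% and 0.0463% in SAH, and 0.00222%, 0.0484% and 0.00269% in Sham. ASV 11 was more evenly spread, with 0%, 0.693% and 0.964% in SAH+Tet+ABX, 0.320%, 0.0124% and 0.228% in SAH+Tet, 0.0451%, 0.0213% and 0.0348% in SAH, and 0.00766%, 0.336% and 0.0190% in Sham.

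**Figure D3:**
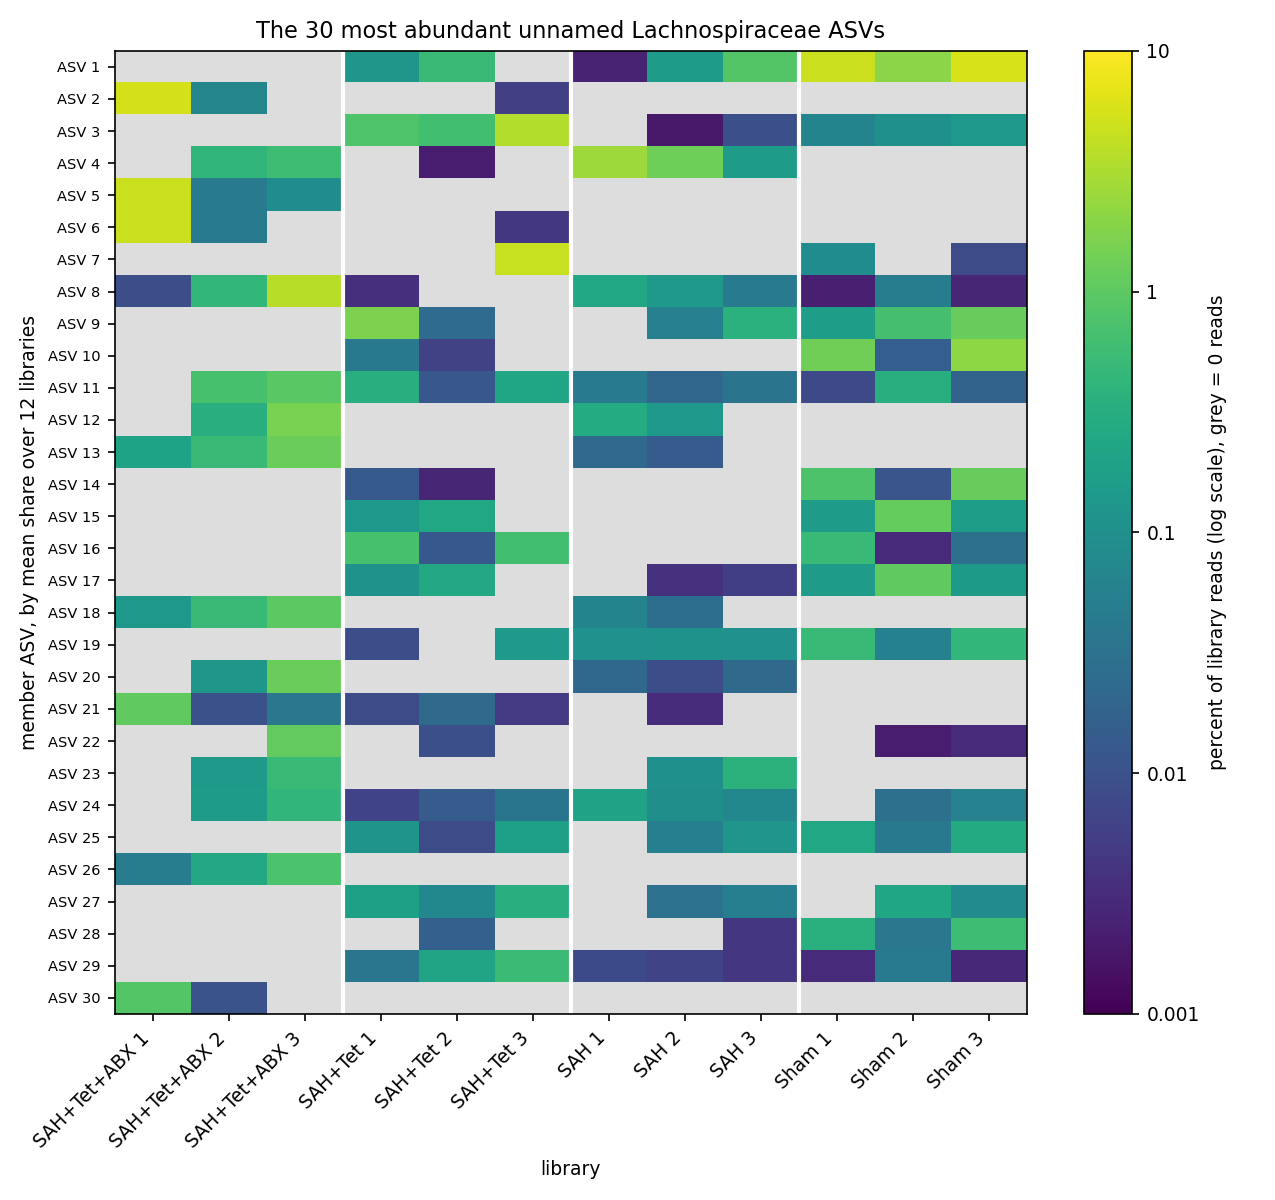
Percent of library reads (colour, log scale; grey marks 0 reads) of the 30 most abundant members (rows) in the 12 libraries (columns, in blocks by group). ASV 1 is bright in the Sham block, ASV 3 in the SAH+Tet block, ASV 4 in the SAH block, and ASVs 2, 5 and 6 in SAH+Tet+ABX 1.

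Most members were seen in few libraries. A single library held 669 of the 1423 members (47.0%), close to the 48.1% of all other ASVs that were seen in 1 library, and these members made up 4.57% of the mean member share. At the other end, 45 members were found in all 4 groups. All 12 libraries held 2 members (0.141%), ASV 117 and ASV 152, against 61 of all other ASVs (1.05%). Both were named after their values were seen and were rare: ASV 117 ranged from 0.00568% in SAH+Tet+ABX 1 to 0.0394% in Sham 3, and ASV 152 from 0.00358% in SAH 2 to 0.0719% in SAH+Tet+ABX 1. The 9 libraries without antibiotics shared 26 members. These held 5.14% ± 4.73 of member reads in SAH+Tet+ABX (SD, n = 3) and 7.98% ± 2.48 in the 9 libraries (SD, n = 9).

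Sham libraries shared the most members and SAH+Tet+ABX libraries the fewest. At least 1 read was found for 233 members in SAH+Tet+ABX, 767 in SAH+Tet, 512 in SAH and 741 in Sham. Of these, all 3 libraries of the group held 22 in SAH+Tet+ABX, 121 in SAH+Tet, 93 in SAH and 234 in Sham. They held on average 35.3% of member reads in SAH+Tet+ABX, 42.7% in SAH+Tet, 63.0% in SAH and 85.7% in Sham. Members found in no other group numbered 127 in SAH+Tet+ABX (54.5% of those found there), 308 in SAH+Tet (40.2%), 176 in SAH (34.4%) and 276 in Sham (37.2%). At a detection limit of 0.005% of library reads in place of 1 read, these shares were 51.2% in SAH+Tet+ABX, 37.3% in SAH+Tet, 28.3% in SAH and 36.4% in Sham. The numbers in this paragraph were not brought to an equal depth. They were not computed for all other ASVs, so they do not set the members apart from these.

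Much of the member reads of SAH+Tet+ABX lay in ASVs that were not found in SAH+Tet. In SAH+Tet+ABX, 52.6% ± 7.61 of member reads came from ASVs with no read in any SAH+Tet library, against 16.2% ± 6.61 of the reads of all other ASVs (SD, n = 3). In SAH+Tet, 87.4% ± 4.95 of member reads came from ASVs with no read in SAH+Tet+ABX, against 47.0% ± 8.21 of the reads of other ASVs. The overlapping summed shares of SAH+Tet+ABX and SAH+Tet thus came in large part from different members. Named Lachnospiraceae count among the other ASVs here and were not taken alone. These shares therefore do not set the members apart from the rest of their family. With the 0.005% limit, 71.7% ± 4.55 of the SAH+Tet+ABX member reads lay in ASVs below the limit in SAH+Tet.

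The groups without antibiotics exchanged members as well. In SAH+Tet, 43.8% ± 5.97 of member reads came from ASVs not found in SAH, and in SAH 33.4% ± 3.85 from ASVs not found in SAH+Tet (SD, n = 3 each). In SAH, 53.8% ± 13.6 of member reads came from ASVs not found in Sham, and in Sham 32.4% ± 4.37 from ASVs not found in SAH. The same share for all other ASVs was 15.3%, 8.97%, 19.1% and 10.4%. Between SAH+Tet and Sham the shares were 18.9% ± 5.07 of SAH+Tet member reads and 12.4% ± 1.92 of Sham member reads, against 12.4% ± 6.12 and 7.33% ± 0.682 of the reads of all other ASVs. These shares share libraries between comparisons and were not tested against each other. They were not computed for named Lachnospiraceae alone.

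The make-up of the members differed among the 4 groups. Bray-Curtis distances, from 0 for the same shares of member reads to 1 for no ASV in common, averaged 0.617 ± 0.239 between libraries of 1 group (SD, 12 pairs) and 0.873 ± 0.0958 between libraries of different groups (54 pairs). Group membership took up 55.7% of the squared distances, and the exact permutation p was 6.49e-05 (adjusted 0.00039), the smallest that the 15400 assignments allow. It was 0.00357 without SAH+Tet+ABX and 6.49e-05 with SAH 1 and SAH 2 averaged, each the smallest that the libraries then left allow. Named Lachnospiraceae (53.1%) and all other ASVs (53.2%) gave the same exact permutation p, so a difference in make-up was not particular to the members. Taken in pairs, group membership took up 53.8% between SAH and Sham. It took up 43.6% with SAH+Tet set against SAH, and 42.3% with SAH+Tet+ABX set against SAH+Tet. Each pair had an exact permutation p of 0.1, the smallest that 3 against 3 allows.

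The closest libraries were Sham 1 and Sham 3, at a distance of 0.194, and SAH 1 and SAH 2, at 0.232. SAH+Tet+ABX 2 and 3 lay at 0.480 from each other, and at 0.936 and 0.948 from SAH+Tet+ABX 1. Distances averaged 0.788 within SAH+Tet+ABX, 0.680 within SAH+Tet, 0.569 within SAH and 0.430 within Sham. Between groups, SAH+Tet+ABX averaged 0.965 from SAH+Tet, 0.888 from SAH and 0.971 from Sham. SAH+Tet averaged 0.848 from SAH and 0.757 from Sham, and SAH 0.811 from Sham. For named Lachnospiraceae these averages between groups, in the same order, were 0.941, 0.868, 0.975, 0.836, 0.778 and 0.766. By their members, the libraries SAH+Tet+ABX 2 and 3 were nearest, outside their group, to SAH 1 and SAH 2.

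**Figure D4:**
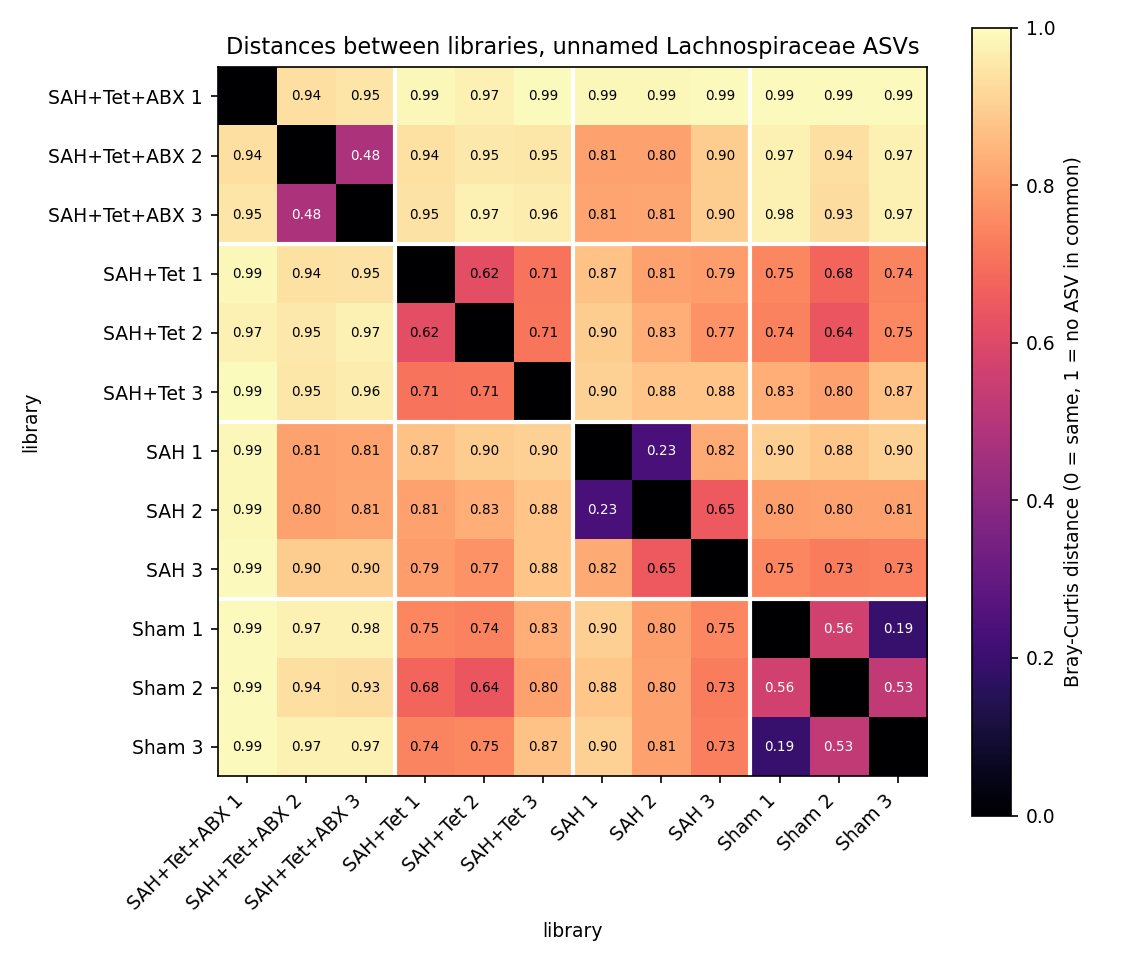
Bray-Curtis distance between each pair of the 12 libraries from member ASVs as shares of member reads (0, same shares; 1, no ASV in common), in blocks by group. Distances are lowest for Sham 1 with Sham 3 (0.19) and SAH 1 with SAH 2 (0.23), and SAH+Tet+ABX 1 is at least 0.936 from every other library.

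Member reads lay more often than the reads of other ASVs in ASVs that no other group held. This comparison was added after the values were seen. The percent of member reads in ASVs with no read in the other 3 groups was 42.4%, 28.1% and 16.7% in SAH+Tet+ABX, 13.99%, 10.6% and 11.0% in SAH+Tet, 19.7%, 17.2% and 27.2% in SAH, and 8.13%, 7.33% and 9.00% in Sham. It was 17.6% ± 10.4 over the 12 libraries, against 6.11% ± 3.56 for all other ASVs (SD, n = 12), and higher in 12 of 12 libraries. The difference of 11.5 ± 8.83 percentage points had p = 0.00049 in an exact sign-flip permutation test, the smallest 12 libraries allow. Libraries of 1 group share the set of ASVs compared, so they were not fully independent in this test. Against named Lachnospiraceae, at 15.5% ± 21.9, the difference was 2.14 ± 14.8 points and higher in 10 of 12 libraries (exact permutation p = 0.655). The contrast with other ASVs was thus not shown to set the members apart from the rest of their family.

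**Figure D5:**
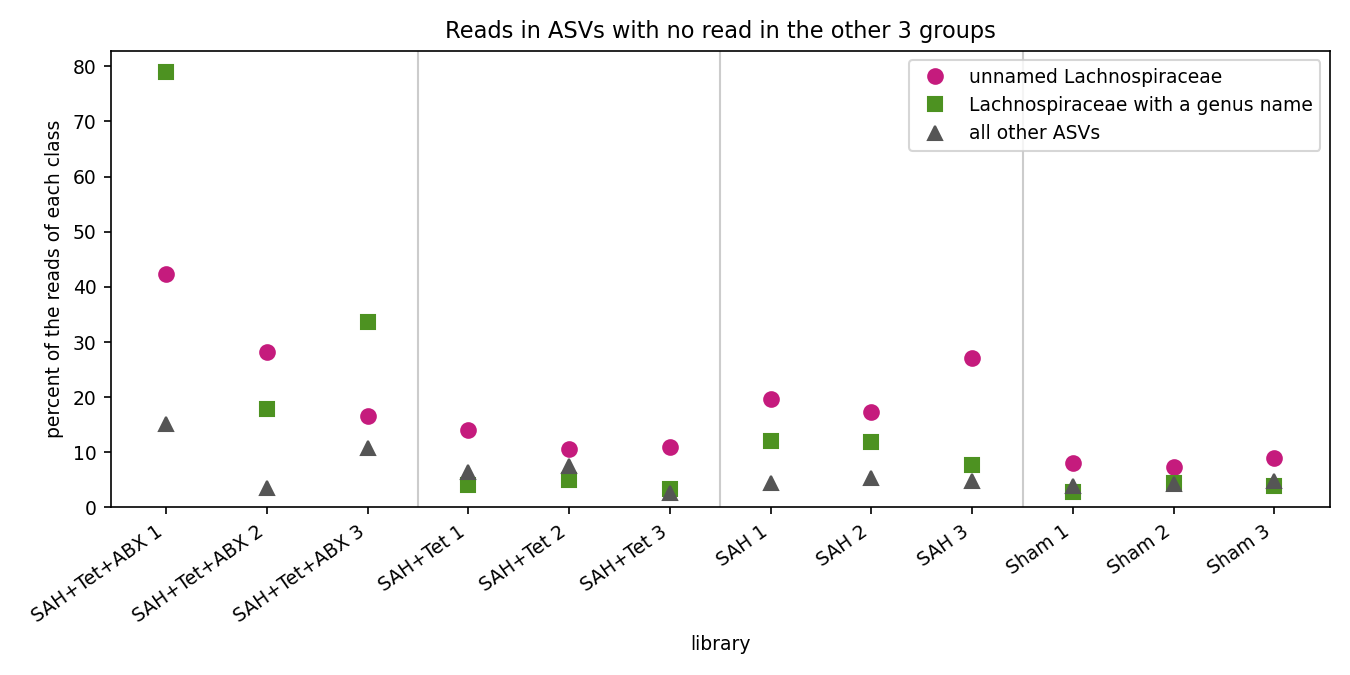
Percent of reads in ASVs with no read in the other 3 groups, for each of the 12 libraries and for unnamed Lachnospiraceae (circles), Lachnospiraceae with a genus name (squares) and all other ASVs (triangles). Circles lie above triangles in 12 of 12 libraries. Squares lie above circles in SAH+Tet+ABX 1 and SAH+Tet+ABX 3.

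The comparison of SAH with Sham addresses the haemorrhage model itself. Over all 1423 members, 138 (9.70%) were lower in every SAH library than in every Sham library, against 7.9% of all 7238 ASVs other than Eukaryota. A further 42 members (2.95%) were higher in every SAH library, against 2.38% of all ASVs. Of the 138, 94 had no read in SAH, and of the 42, 22 had no read in Sham. These shares were near those of all ASVs. ASVs 1, 10, 14, 15 and 17 were the lower members with the largest mean differences, and ASVs 4, 31, 32, 36 and 56 the higher ones.

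ASV 1 averaged 0.337% ± 0.446 in SAH and 4.19% ± 1.92 in Sham (SD, n = 3 each), 12.4-fold lower in SAH. ASV 10 had no read in SAH and was at least 1420-fold lower there by means, and ASV 14 at least 804-fold. These bounds set 3 reads per library for the group without reads. ASV 14 had 0.768%, 0.0114% and 1.18% in Sham. The reads of ASV 10 were 3.00 times those of ASV 14 in SAH+Tet 1, and 1.77, 1.39 and 1.77 times in Sham 1, 2 and 3. ASV 15 had 0% in SAH and 0.158%, 1.14% and 0.168% in Sham (at least 602-fold lower). ASV 17 had 0%, 0.00376% and 0.00557% in SAH and 0.156%, 1.07% and 0.151% in Sham, so both peaked in Sham 2.

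ASV 4 was at least 2252-fold higher in SAH than in Sham, where it had no read. ASV 31 had 0.0278%, 0.0218% and 0.785% in SAH and 0% in the other 9 libraries (at least 468-fold higher than in Sham). ASV 32 had 0.469%, 0.209% and 0.0434% in SAH and 0% in Sham. ASV 36 had 0.354%, 0.176% and 0.00312% in SAH, and ASV 56 had 0.363%, 0.155% and 0.00602%, with 0% of both in Sham. The bounds for ASVs 32, 36 and 56 were at least 404-fold, 299-fold and 294-fold. ASVs 4, 32, 36 and 56 were higher in SAH 1 and SAH 2, the pair that ran together, than in SAH 3.

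By edgeR's quasi-likelihood test on the whole table, 0 of the 459 members tested passed an adjusted p of 0.05 between SAH and Sham, as did 0% of all 2283 ASVs. The filter of at least 10 reads in at least 3 libraries left 459 of the 1423 members. The lowest adjusted p of a member was 0.110. At an unadjusted edgeR p under 0.05 there were 157 of the 459 members tested, against 552 of all 2283 ASVs tested (24.2%). DESeq2 called 121 members (26.4% of those tested, against 17.8% of all ASVs), and limma on centred log-ratios 75 (16.3%, against 11.8%). edgeR itself called 98 of 330 members with the 6 libraries alone (29.7%, against 17.9%). With no filter it called 37 of 1296 (2.85%, against 2.38%). The call thus depended on the tool, the libraries in the fit and the filter. ASV 1 had a log2 fold change of -3.31 ± 2.36 (SE, edgeR adjusted p = 0.463).

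Summed into 1 feature among 188 at genus level, the members had a log2 fold change of -0.51 ± 0.34 (SE) between SAH and Sham, with an edgeR adjusted p of 0.384. The median over all 188 features was 0.22, and 0% of the 188 were called.

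The comparison of SAH+Tet with SAH addresses tetrandrine in the model, and it uses the same SAH libraries as the one above. Of the 1423 members, 64 (4.498%) were higher in every SAH+Tet library than in every SAH library, against 3.38% of all ASVs. Lower without overlap were 38 members (2.67%), against 2.1% of all ASVs. ASVs 3, 16, 29, 27 and 44 were the higher members with the largest mean differences, and ASVs 4, 31, 32, 36 and 56 the lower ones. Those 5 lower members are the 5 that were named as higher in SAH than in Sham, through the same SAH values.

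ASV 3 averaged 1.62% ± 1.59 in SAH+Tet and 0.00375% ± 0.00495 in SAH (SD, n = 3 each). ASV 16 had 0.680%, 0.0128% and 0.607% in SAH+Tet and 0% in SAH, and was at least 532.5-fold higher in SAH+Tet by means. ASV 29 had 0.0376%, 0.215% and 0.526% in SAH+Tet against 0.00806%, 0.00659% and 0.00423% in SAH, a 41.2-fold higher mean. ASV 16 was also present in the 3 Sham libraries, at 0.491%, 0.00301% and 0.0302%.

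ASV 27 had 0.191%, 0.0733% and 0.329% in SAH+Tet against 0%, 0.0309% and 0.0524% in SAH. ASV 44 had 0.0277%, 0.0116% and 0.384% in SAH+Tet against 0.00282%, 0% and 0% in SAH. In Sham, ASV 44 had 0.0825%, 0.0692% and 0.121%, above the SAH values. On the lower side, ASV 4 had 11 reads in the SAH+Tet group, all in SAH+Tet 2. ASVs 31, 36 and 56 had none in SAH+Tet, and were at least 327-fold, 209-fold and 205-fold lower there than in SAH. ASV 32 had 0%, 0.0128% and 0.00836% in SAH+Tet.

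By edgeR, 0 of the 459 members tested passed between SAH+Tet and SAH, as did 0% of the 2283 ASVs. The lowest adjusted p of a member was 0.179. At an unadjusted edgeR p under 0.05 there were 135 of the 459 members tested, against 474 of all 2283 ASVs tested (20.8%). DESeq2 called 82 members (17.9% of those tested, against 12.9% of all ASVs) and limma on centred log-ratios 35 (7.63%, against 4.91%). As 1 feature the members had a log2 fold change of 0.12 ± 0.34 (SE, edgeR adjusted p = 0.879), against a median of 0.09 over the 188 features.

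The added antibiotics were addressed by setting SAH+Tet+ABX against SAH+Tet. Of the 1423 members, 101 (7.10%) were lower in every SAH+Tet+ABX library than in every SAH+Tet library, against 6.65% of all ASVs. Of these, 95 had no read in SAH+Tet+ABX. Higher without overlap were 13 members (0.914%), against 1.24% of all ASVs, and 10 of them had no read in SAH+Tet. ASVs 5, 8, 13, 18 and 26 were the higher members with the largest mean differences, and ASVs 3, 16, 29, 27 and 44 the lower ones.

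ASV 13 had 0.207%, 0.509% and 1.25% in SAH+Tet+ABX, 0% in SAH+Tet and in Sham, and 0.0230%, 0.0147% and 0% in SAH. ASV 18 had 0.138%, 0.523% and 0.972% in SAH+Tet+ABX, 0% in SAH+Tet and in Sham, and 0.0640%, 0.0277% and 0% in SAH. ASV 26 had 0.0497%, 0.261% and 0.725% in SAH+Tet+ABX and 0% in the other 9 libraries. These 3 members were at least 770-fold, 639-fold and 405-fold higher than in SAH+Tet, where none had a read. ASV 5 was at least 1906-fold higher by means, and its mean rested on SAH+Tet+ABX 1. ASV 8 averaged 1.39% ± 2.02 in SAH+Tet+ABX and 0.00116% ± 0.00202 in SAH+Tet (SD, n = 3 each). Of ASVs 5, 8, 13, 18 and 26, ASVs 8, 13 and 18 also had reads in SAH.

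The lower members had no read in SAH+Tet+ABX. ASV 3 was at least 1242-fold lower there than in SAH+Tet, ASV 16 at least 331-fold, ASV 29 at least 198-fold, ASV 27 at least 151-fold and ASV 44 at least 108-fold. All 5 were also named as higher in SAH+Tet than in SAH, and both comparisons use the same SAH+Tet libraries.

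By edgeR, 54 of the 488 members tested passed an adjusted p of 0.05 between SAH+Tet+ABX and SAH+Tet, against 10.3% of all 2394 ASVs tested. Of these, 4 were higher (0.585% of all ASVs were) and 50 lower (9.73% of all ASVs were). The split depended on the method. limma on centred log-ratios called 24 members higher and 25 lower, against 4.8% and 4.97% of all ASVs. edgeR with no filter on low counts tested all 1423 members and called 27 higher and 32 lower, against 0.801% and 3.08% of all ASVs. At an unadjusted p under 0.05 in the main edgeR test there were 267 of the 488 members tested, against 1264 of all 2394 ASVs tested (52.8%). The filter kept members that were abundant in 1 group alone, so the count describes these ASVs and not all 1423. Without SAH+Tet+ABX 3 the count was 0, without SAH+Tet+ABX 2 it was 12, and without SAH+Tet+ABX 1 it was 13. Other libraries left out moved it by over 1.5 times as well: it was 25, 28 and 96 without SAH+Tet 1, 2 and 3, 107 and 27 without SAH 1 and SAH 2, and 18 and 12 without Sham 1 and Sham 3.

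The 4 members called higher were ASV 13 (edgeR adjusted p = 0.0419), ASV 59 (0.0452), ASV 26 (0.0465) and ASV 18 (0.0467). ASV 59, named here after its values were seen, had 0.115%, 0.0777% and 0.275% in SAH+Tet+ABX and 0% in the other 9 libraries. The 10 members with the lowest p were lower, namely ASVs 39, 3, 52, 130, 113, 129, 122, 35, 135 and 29, with edgeR adjusted p from 0.0170 to 0.0179. All 10 had no read in SAH+Tet+ABX.

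Several of these 10 had low shares in every library without antibiotics. ASV 39 had 0.122%, 0.0764% and 0.0497% in SAH+Tet, 0.177%, 0.0867% and 0.0365% in SAH, and 0.0466%, 0.0899% and 0.0629% in Sham. ASV 52 had 0.0190%, 0.0687% and 0.0563% in SAH+Tet, 0.0266%, 0.0284% and 0.0804% in SAH, and 0.112%, 0.0642% and 0.136% in Sham. ASV 130 had 0.0397%, 0.0112% and 0.0246% in SAH+Tet, 0.0234%, 0.0128% and 0.0147% in SAH, and 0.0222%, 0.0158% and 0.0296% in Sham. These 3 members had reads in all 9 libraries without antibiotics. Of the rest, ASVs 113, 129, 122, 35, 135 and 29 likewise had reads in all 9, the lowest being 0.00289% for ASV 29 in Sham 3. ASV 3 had none in SAH 1.

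As 1 feature among 196 at genus level, the members had a log2 fold change of 0.53 ± 0.51 (SE) between SAH+Tet+ABX and SAH+Tet, with an edgeR adjusted p of 0.411. Of the 196 features 37.2% were called, and the median log2 fold change over them was -1.65. By limma on centred log-ratios, which set each feature against the mean of all, the same feature had a log2 fold change of 2.74 (adjusted p = 0.0468). The sum of the members thus had no edgeR call while 54 of their ASVs did.

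The named genera of the family were tested beside them. Of 36 in the table, 29 could be tested between SAH and Sham and between SAH+Tet and SAH, and 0 were called in each by edgeR. Their median log2 fold changes were 0.37 and 0.27, against 0.22 and 0.09 over all 188 features. Between SAH+Tet+ABX and SAH+Tet, 7 of 31 tested were higher and 6 lower, against 18 higher and 55 lower of all 196 features.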

How the data were processed

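Members, lists and tests were chosen with earlier results of these data known. The authors deposited counts: unscaled reads per ASV with a lineage, in a series table that was identical to the 12 per-library tables. The submitters' processing notes name fastp (read trimming) and cutadapt (primer removal). The sources used here do not give the denoiser, the primers, the stretch of 16S or the reference taxonomy, which set how many ASVs exist and how many lack a genus name. The 2 Eukaryota ASVs were left out. Shares are percent of library reads, ASV numbers are hypergeometric expectations at 211450 reads, and library values were compared by two-sided exact permutation tests. Counts were tested with edgeR 4.0.16 in R 4.3.3 (TMM scaling, quasi-likelihood fit, at least 10 reads in at least 3 libraries, Benjamini-Hochberg adjustment over all features, threshold 0.05). The 9 libraries without antibiotics formed 1 fit for SAH against Sham and SAH+Tet against SAH, and all 12 a second for SAH+Tet+ABX against SAH+Tet. DESeq2 1.42.0, limma 3.58.1 (centred log-ratios, 0.5 added), other scalings, no filter, blocks and leaving out libraries were alternatives. The SE of a log2 fold change is its size over the root of the F statistic. Scripts were tested on simulated data. Limits from 0 reads, and folds against 3 reads per library, cover counting error only. The text names the leading member of each library, the 10 highest mean shares, the 5 largest mean differences each way among members whose groups did not overlap, and the 10 lowest p past the edgeR threshold. The second treatment label, the same in all groups, names a cell differentiation protocol and was not used. The member ASVs of same-numbered libraries of different groups did not deviate together (median r -0.0198, range -0.0924 to 0.0679 over 18 pairs). The main tests do not pair libraries by number. Most members had 0 reads in most libraries, so these correlations cannot exclude pairing.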

Additional observations from a re-analysis of the deposited data

How the results depend on the processing

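Of 102 recomputed values other than those leaving out 1 library, 81 kept their direction and side of the threshold or stayed within 1.5 times, and 21 did not. The cause was not tested for any of them. Whether replicate numbers pair these libraries is not known. Single member ASVs did not deviate together by replicate number. Replicate 2 was nonetheless the lowest library of every group in summed share and in the ratio of member to other ASV number. With the replicate block, the exact p over the 4 groups was 0.0278 for summed share and 0.0156 for the ratio of member to other ASV number. Calls between SAH+Tet+ABX and SAH+Tet numbered 17 with it (6 higher, 11 lower; 0.627% and 3.51% of all ASVs), against 54. The test of ASV number gave p = 0.121 without SAH+Tet+ABX (exact permutation). The lower depth class held SAH+Tet 3 alone of SAH+Tet and SAH 1 alone of SAH, so differences within it rest on these single libraries. Within it, SAH+Tet+ABX minus SAH+Tet was -0.972 points for summed share, -8.75 for leading share and -0.35 for the log2 ratio to named Lachnospiraceae. SAH+Tet minus SAH was 0.550 points for leading share. Within the higher class the log2 ratio to named Lachnospiraceae was -0.0537 for SAH+Tet minus SAH. By DESeq2, 121 of the 459 members tested were called between SAH and Sham (26.4%), and by limma 75 (16.3%). With no filter 37 of 1296 were called (2.85%), and with the 6 libraries alone 98 of 330 (29.7%). Of all ASVs tested, 17.8%, 11.8%, 2.38% and 17.9% were called, in the same order. Between SAH+Tet and SAH they numbered 82 by DESeq2, 35 by limma and 31 with no filter, beside 12.9%, 4.91% and 1.34% of all. Between SAH+Tet+ABX and SAH+Tet, 164 of 488 members were called by DESeq2 (33.6%) and 30 with library-size scaling (6.15%). The number was 24 with depth class as a block (4.92%), and 96 of 156 with the 6 libraries alone (61.5%). Of all ASVs tested, 36.5%, 6.47%, 6.06% and 54.7% were called, in the same order. The summed feature there was 2.74 by limma. Leaving out 1 library at a time moved this count of calls between 0 and 107, and left those of the other comparisons at 0. It moved the exact p from 0.0461 to 0.276 for the number ratio, from 0.00065 to 0.0105 for ASV number, from 0.11 to 0.625 for summed share and from 6.49e-05 to 0.000195 for composition. Leading share differences ran from -6.87 to 1.57 points for SAH+Tet minus SAH, reaching 1.54 without SAH+Tet 2 and 1.57 without SAH 1. They ran from -2.58 to 5.82 for SAH+Tet+ABX minus SAH+Tet, with -2.11, -0.0561, -0.350 and -2.58 without SAH+Tet+ABX 1, SAH+Tet+ABX 3, SAH+Tet 1 and SAH+Tet 2. The summed feature of SAH+Tet against SAH ran from -0.0374 (without SAH 2) to 0.41, and was -0.03 without SAH+Tet 3. With 3 libraries a group, pair tests cannot go below an exact p of 0.1, and ASVs below the limit set by depth go unseen in the shallower libraries.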
